A study of Mus musculus with 61 samples.

Results

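The oocytes taken after doxorubicin were compared with control oocytes across the whole transcriptome. The members were the table columns whose names start with DO (16 doxorubicin oocytes) and CO (16 control oocytes), 32 of the 61 single cells in the table; the other cells are granulosa cells. All cells came from the ovaries of wild-type (WT) mice of the outbred CD-1 stock at postnatal day 5, collected 6 hours after the mice were injected intraperitoneally with the solvent alone or with doxorubicin, the latter at a dose the series writes as 10 "mg/kb". That unit could not be read with certainty. Whole ovaries were exposed in the animal, each cell was amplified alone by SMART-seq, and every sample carries the same batch label, 1. No animal is named for any cell, so each group is 1 sample of 16 cells: no p-value is given, and a spread over cells is a spread within a group, not between animals. Levels are in CPM, a gene's count scaled to the library's total. A gene was measured when its CPM, pooled over the cells of a group, reached 5 in either group. That held for 11119 of the 23927 gene rows.

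Doxorubicin is an anthracycline that slots into DNA and traps topoisomerase II on cut DNA, which leaves double-strand breaks. Oocytes of the newborn ovary are arrested in the diplotene stage of meiotic prophase and are known for their sensitivity to such breaks, because they hold TAp63, a relative of p53 that shares many of its target genes. Cdkn1a, Mdm2 and Plk2 are targets of this kind, and Fermt3 encodes kindlin-3, an activator of integrins best known from blood cells.

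Library totals ran from 7873836 to 31262609 counts in control oocytes and from 8899079 to 13971485 in doxorubicin oocytes. After thinning every cell to 5000000 counts, the median number of genes with a count was 13243.5 in control and 13023 in doxorubicin oocytes. The oocyte label held: the summed level of 20 oocyte marker genes ran from 26589 to 60964 CPM in control and from 19420 to 66060 CPM in doxorubicin oocytes, and zona pellucida genes Zp1, Zp2 and Zp3 had at least 5 reads in all 32 cells. Transcripts used here as markers of other cells were present in the oocytes at varying levels. Whether they came from other cells or from the oocytes themselves was not tested. Summed granulosa markers ran from 3.61 to 814 CPM (median 87.0) in control and from 17.9 to 3130 CPM (median 83.3) in doxorubicin oocytes, and stroma markers from 0.37 to 1113 against 3.58 to 2042 CPM. Endothelial markers ran from 0 to 34.2 CPM (median 4.56) in control and from 2.61 to 135 CPM (median 27.9) in doxorubicin oocytes. Pooled over each group, Tek went from 2.59 to 18.9 CPM, Pecam1 from 1.86 to 8.55 CPM and Cldn5 from 0.66 to 1.06 CPM. Egfl7 went the other way, from 2.47 to 1.98 CPM, and Cdh5, Kdr and Emcn were below 1 CPM in both. Of the blood and immune markers, Hba-a1 went from 0.99 to 7.67 CPM and Hbb-bs from 0.86 to 4.42 CPM, while Lyz2 went from 0.90 to 0 CPM. Ptprc, Cd68, C1qa and Hbb-bt were below 1 CPM in both groups, and Hba-a2 was at 0 in both. The summed level reached 21.97 CPM in controls and 82.6 CPM after doxorubicin. Doxorubicin oocytes 9, 12 and 11 had the highest somatic sums, 5172, 3934 and 2707 CPM, and no control oocyte reached 2000 CPM. Oocytes with under 200 CPM of somatic markers (9 doxorubicin, 8 control) are called low-somatic here, and values among them are given where they bear on a result. The part of somatic RNA in the results was not tested.

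Promoters are shown for Cdkn1a and for 4 of the genes that were detected in doxorubicin oocytes and almost never in control oocytes, because their windows hold a p53 half-site consensus. Each line gives the 250 bases before the gene start of the RefSeq annotation (build GRCm38.p6), 5′ to 3′ on the gene's strand, with matches in capitals.
Cdkn1a (chr17:29090729-29090978, plus strand): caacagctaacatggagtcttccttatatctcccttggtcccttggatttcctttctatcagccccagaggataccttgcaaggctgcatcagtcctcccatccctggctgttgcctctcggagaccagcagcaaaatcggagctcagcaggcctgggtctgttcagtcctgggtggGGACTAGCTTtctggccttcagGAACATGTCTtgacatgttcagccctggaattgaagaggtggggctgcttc
Cfap126 (chr1:171113736-171113985, plus strand): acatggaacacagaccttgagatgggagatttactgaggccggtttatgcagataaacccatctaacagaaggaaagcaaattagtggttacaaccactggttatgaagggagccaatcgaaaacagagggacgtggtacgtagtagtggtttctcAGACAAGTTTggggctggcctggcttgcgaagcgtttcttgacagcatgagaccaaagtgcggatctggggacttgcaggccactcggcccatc
1700007K13Rik (chr2:28466325-28466574, minus strand): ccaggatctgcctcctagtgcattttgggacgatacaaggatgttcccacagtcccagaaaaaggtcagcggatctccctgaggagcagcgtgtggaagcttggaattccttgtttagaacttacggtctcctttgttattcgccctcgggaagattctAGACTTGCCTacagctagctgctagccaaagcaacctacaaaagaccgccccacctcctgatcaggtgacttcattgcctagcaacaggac
Egf (chr3:129755323-129755572, minus strand): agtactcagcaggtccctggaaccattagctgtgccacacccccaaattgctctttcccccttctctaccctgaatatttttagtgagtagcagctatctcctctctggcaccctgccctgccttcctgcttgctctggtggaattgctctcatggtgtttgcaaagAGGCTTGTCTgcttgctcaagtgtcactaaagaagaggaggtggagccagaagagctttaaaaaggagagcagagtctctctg
Gm10324 (chr13:66113203-66113452, plus strand): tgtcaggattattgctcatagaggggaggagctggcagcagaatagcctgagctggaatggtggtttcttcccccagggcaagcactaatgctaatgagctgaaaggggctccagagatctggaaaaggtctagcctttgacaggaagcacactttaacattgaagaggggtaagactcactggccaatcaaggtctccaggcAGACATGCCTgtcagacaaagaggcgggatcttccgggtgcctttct
In Cdkn1a the matches begin 73 and 51 bases before the start, 12 bases apart. The match begins 94 bases before the start in Cfap126, 91 in 1700007K13Rik, 83 in Egf and 47 in Gm10324. Windows of 250 bases before to 50 after the start were available for 8718 of the measured genes, and 709 of them (8.13%) held a half-site. Among the 21 genes that gained detection, 17 had a window and 7 of these (41.2%) held one. Outside the p53-family list it was 6 of 15 (40.0%). That list does not hold every p53 target, so genes outside it may be targets too. The p53-family list itself stood at 11 of 30 (36.7%), the genes at least 2-fold higher at 66 of 518 (12.7%), and the genes at least 2-fold lower at 11 of 202 (5.45%). A pair of half-sites with at most 13 bases between them occurred in 5 of all windows (0.057%), and of the gained genes none held a pair. The half-site is short and its consensus is palindromic, so both strands give the same match; a match is a description of the letters, and the gained genes were looked at after their values were known.

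Most transcripts were alike in the 2 groups. The median log2 ratio of doxorubicin to control over all measured genes was 0.0087, with quartiles of -0.24 and 0.25, and 8447 genes (76.0%) lay within 0.5 log2 either way. By any amount, 51.1% were higher. At least 2-fold, 701 genes were higher (6.3 percent of genes tested) and 272 were lower (2.45 percent). These sets were mostly low genes: 456 of the 701 and 203 of the 272 were under 20 CPM in both groups. Among the 2728 genes between 100 and 1000 CPM in the higher group, 44 (1.61%) were 2-fold higher and 5 (0.183%) lower, and of the 70 genes above 1000 CPM none was either. Those 5 lower genes were Rpl26, Akap12, a scaffold of protein kinase A (154 and 67.8 CPM, log2 ratio -1.18), and the intraflagellar transport genes Ift172 (119 and 54.7 CPM, -1.13), Wdr19 (106 and 51.7 CPM, -1.04) and Ift122. Of the 701 higher genes, 555 were also measured among low-somatic oocytes and 464 were 2-fold higher there, whereas 12 had the opposite sign; 535 stayed 2-fold higher without doxorubicin oocytes 9, 11 and 12. Genes whose level in control granulosa cells was at least 4 times that in control oocytes made up 321 of the 701, against 1104 of all 11119. Both measures divide by the control oocyte level, so a low level there favours both. The contrast is thus built in to an unknown extent. Of the 272 lower genes, 217 were measured among low-somatic oocytes and 149 were 2-fold lower there.

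Agreement over cells was counted as the share of the 256 pairs of 1 doxorubicin and 1 control oocyte in which the doxorubicin oocyte was the higher. At least 75% of pairs were reached by 447 genes upward (4.02 percent) and 369 downward (3.32 percent). At least 90% was reached by 23 genes upward (0.207 percent) and 5 downward (0.045 percent). For no gene was every doxorubicin oocyte above every control oocyte (0 percent) or every one below (0 percent). The nearest were Fermt3, Hprt and 1700007K13Rik, with 14 of 16 doxorubicin oocytes above all controls, and Agtpbp1 and Pik3cd, with 12 below. A large ratio was seldom a shared one: of the 701 genes, 193 reached 75% of pairs and 15 reached 90%, and leaving out 1 oocyte took 235 under 2-fold.

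**Figure D1:**
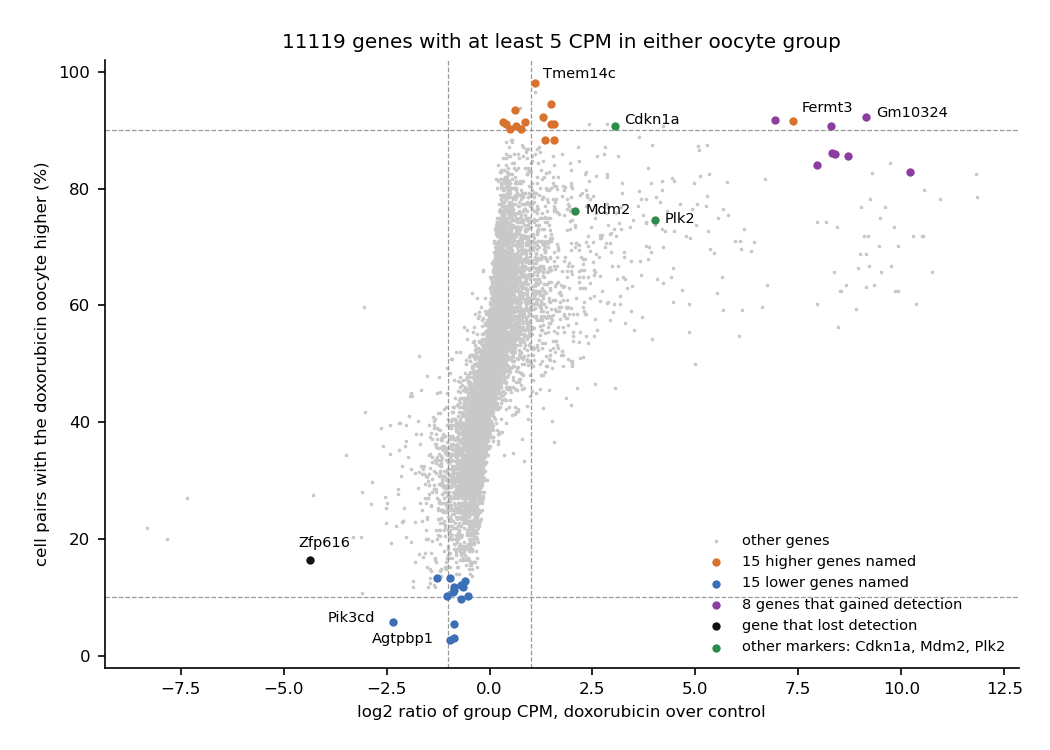
Each point is 1 of 11119 measured genes; the x axis is the log2 ratio of pooled CPM, doxorubicin over control, and the y axis the percent of 256 cell pairs in which the doxorubicin oocyte was higher. The cloud is centred at a log2 ratio of 0.0087, and 23 genes lie at or above 90% and 5 at or below 10%.

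Among the genes that were higher most evenly over the cells, Tmem14c, Isca1, Cisd1 and Cox4i1 encode mitochondrial proteins, and Lsm4 and Wdr61 encode proteins of RNA complexes. Of the 23 genes at 90% of pairs, 3 were in the p53-family list (Cdkn1a, Aen and Trp53inp1). Outside the p53, JNK and AP-1 lists, the 15 genes with at least 50 CPM and the highest share of pairs are described here, with bracketed 95% intervals of the log2 ratio that cover counting error only. Tmem14c, an inner-membrane mitochondrial protein needed for heme synthesis (chr13:41016292-41022586), had 10.6 CPM in the lowest, 350 in the median and 545 in the highest control oocyte, and 438, 729 and 948 CPM in doxorubicin oocytes. Of the doxorubicin oocytes, 12 exceeded every control, and the pooled level was 328 against 700 CPM, a log2 ratio of 1.10 [1.08, 1.11] with 98.0% of pairs. It was 1.16 among low-somatic oocytes.

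Isca1, which helps assemble iron-sulfur clusters in mitochondria, ran from 133 to 324 CPM (median 209) in control and from 107 to 569 CPM (median 356) in doxorubicin oocytes. Here 11 doxorubicin oocytes were above all controls and 1 was below, at a log2 ratio of 0.77. Cisd1, the outer-membrane iron-sulfur protein mitoNEET, ran from 72.3 to 225 CPM (median 146) against 140 to 335 CPM (median 216), a log2 ratio of 0.64. Cox4i1, a subunit of cytochrome c oxidase, ran from 745 to 1154 CPM (median 881) against 957 to 1426 CPM (median 1144), a log2 ratio of 0.40 [0.39, 0.41]. The ranges of both genes overlapped, with 8 and 7 doxorubicin oocytes above every control. These genes were picked by their share of pairs, and the cytochrome c oxidase family as a whole had a median log2 ratio of 0.08.

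Among RNA-handling genes, Lsm4, a subunit of the rings that bind U6 RNA and act in mRNA decay, ran from 183 to 378 CPM (median 235) in control and from 293 to 545 CPM (median 372) in doxorubicin oocytes. Its log2 ratio was 0.61 [0.59, 0.63], with 93.4% of pairs. Wdr61, a subunit of the PAF1 elongation complex and of the SKI complex of RNA decay, ran from 47.6 to 157 CPM (median 111) against 118 to 652 CPM (median 257). It was higher at a log2 ratio of 1.49, and 11 doxorubicin oocytes lay above every control. Hprt, the purine salvage enzyme, ran from 13.7 to 45.5 CPM (median 36.3) against 26.8 to 111 CPM (median 54.6), a log2 ratio of 0.87 [0.82, 0.91].

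Casp6, an effector caspase (chr3:129901425-129914103), was the cell-death gene in this set. It ran from 29.5 to 83.3 CPM (median 46.1) in control and from 41.0 to 252 CPM (median 91.6) in doxorubicin oocytes, with 9 above every control, and its log2 ratio was 1.34 [1.30, 1.37]. Kank3, of a family of ankyrin-repeat proteins tied to actin regulation, ran from 6.61 to 118 CPM (median 40.0) against 33.6 to 273 CPM (median 142), a log2 ratio of 1.56. Svbp, the partner of the vasohibins that remove the terminal tyrosine of tubulin, had 95.5 CPM in the control group against 135 CPM. Chmp2a, a subunit of the ESCRT-III membrane-scission complex, had 247 and 310 CPM, and only 3 doxorubicin oocytes were above every control. At log2 ratios of 0.50 and 0.33 these last 2 were small differences held over most cells.

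The other named higher genes were Fermt3 and 3 pseudogene rows, whose reads cannot be told with certainty from those of near-identical copies. Fermt3 (chr19:6998958-7019469) had at most 7.29 CPM in any control oocyte, with a median of 0.10. Doxorubicin oocytes ran from 0 to 751 CPM with a median of 186, and only oocytes 8 and 15 stayed below 1 CPM. The log2 ratio was 7.37 [7.20, 7.54], 8.60 among low-somatic oocytes, and 9.40 without control oocyte 16, which held most of the control reads. Rps2-ps13 had 197 and 481 CPM (log2 ratio 1.29), while Rps2, a gene of the family it copies, had 110 and 98.6 CPM. Gm10020 was 19.3 and 53.9 CPM and Mageb10-ps, on the X chromosome, 57.3 and 169 CPM.

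**Figure D2:**
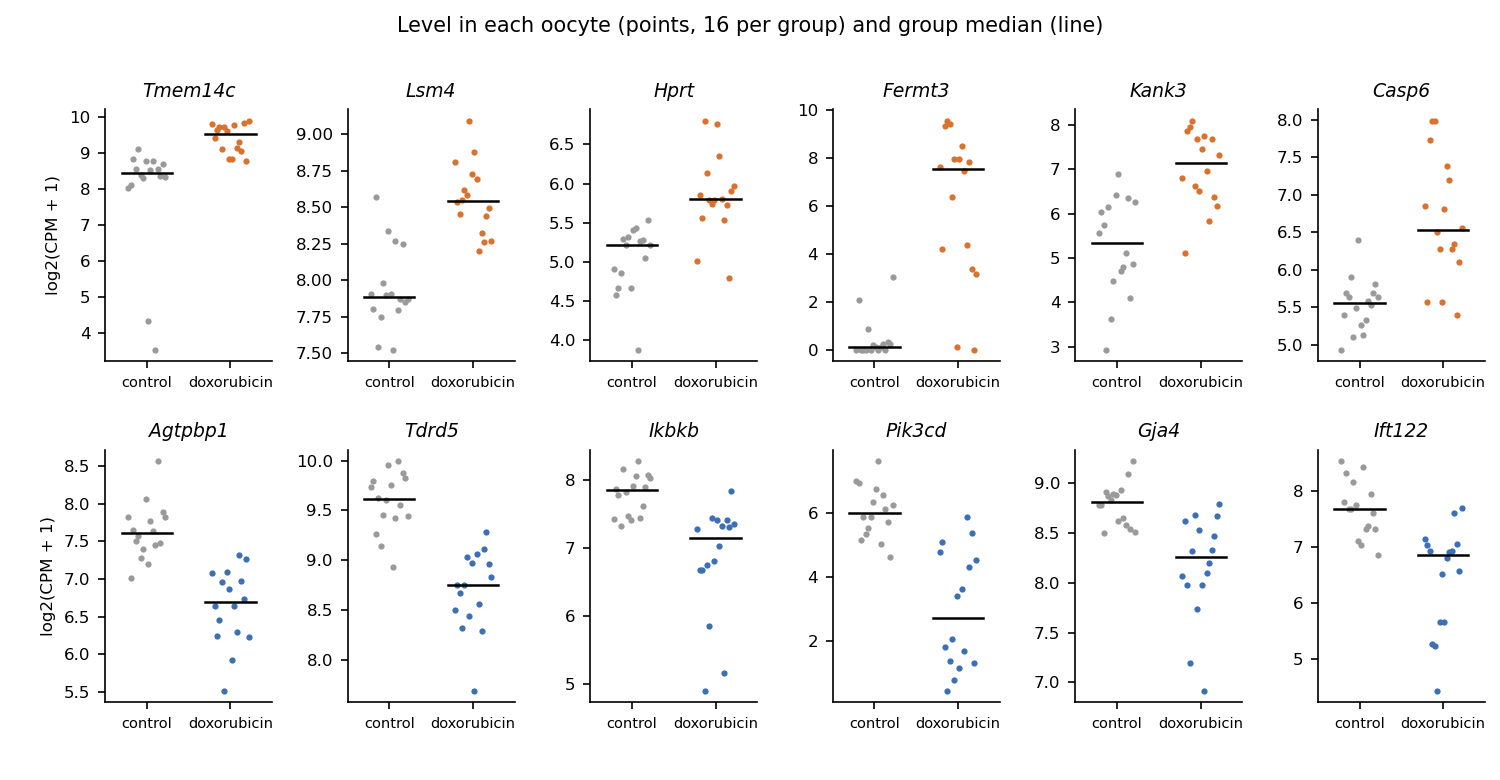
Each point is 1 oocyte, control or doxorubicin, for 12 of the named genes; the y axis is log2(CPM + 1) and the line marks the group's median. The upper genes are higher after doxorubicin and the lower genes lower; each pair of groups overlaps, Fermt3 because doxorubicin oocytes 8 and 15 stayed at control level.

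The genes lower most evenly over the cells were Agtpbp1, Tdrd5, Ikbkb, Pik3cd and Evl, which have unlike roles. Agtpbp1, which trims glutamate side chains from tubulin (chr13:59445742-59585227), ran from 128 to 377 CPM (median 194) in control and from 44.96 to 158 CPM (median 102.3) in doxorubicin oocytes. Of these, 12 lay below every control, and the pooled levels of 205 and 105 CPM gave a log2 ratio of -0.97 [-0.99, -0.94], with the doxorubicin oocyte higher in 2.73% of pairs. Tdrd5, a Tudor-domain protein of germ-cell granules that silence transposons (chr1:156255296-156303664), ran from 488 to 1019 CPM (median 784) against 206 to 623 CPM (median 431). With 10 doxorubicin oocytes below every control, its log2 ratio was -0.86 [-0.87, -0.85].

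Genes of 3 signalling kinases were lower. Pik3cd, the delta catalytic subunit of PI3 kinase (chr4:149649168-149702571), ran from 23.5 to 193 CPM (median 62.7) in control and from 0.39 to 57.4 CPM (median 6.41) in doxorubicin oocytes. This was the largest lower ratio among the 15 named lower genes, -2.33 [-2.40, -2.27], and -2.62 among low-somatic oocytes. Ikbkb, the IKK-beta kinase that releases NF-kB (chr8:22659212-22706589), ran from 159 to 309 CPM (median 230) against 28.9 to 227 CPM (median 142), with 11 oocytes below every control and a log2 ratio of -0.86. Prkab1, a regulatory subunit of the energy-sensing kinase AMPK, had 90.2 and 49.99 CPM (log2 ratio -0.85). The rest of the PI3 kinase, AKT, FOXO and mTOR list did not share the difference: of 39 measured members 20 were higher, and the median log2 ratio was 0.01. Pik3r2, a regulatory subunit, was higher (82.1 and 190 CPM, log2 ratio 1.21), and Rptor, of mTOR complex 1, was lower (log2 ratio -1.05).

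Gja4 encodes connexin 37, the gap-junction protein through which oocytes are coupled to their granulosa cells. It ran from 362 to 596 CPM (median 448) in control and from 120 to 444 CPM (median 306) in doxorubicin oocytes, 11 of which were below every control, at a log2 ratio of -0.53 [-0.55, -0.52]. Evl, an Ena/VASP actin regulator, had 109 and 67.2 CPM, and its log2 ratio of -0.70 was -0.44 among low-somatic oocytes. Ift122, a subunit of intraflagellar transport complex A, ran from 115 to 369 CPM (median 204) against 20.6 to 207 CPM (median 115), a log2 ratio of -1.02. The 6 genes of that complex were then looked at, after these values were seen: Ift140 (log2 ratio -0.86) and Wdr19 (-1.04) were lower too, Ift43 stood at 0.04, and Ttc21b (0.16) and Wdr35 (0.71) were higher. Among low-somatic oocytes Ift140 was at -0.73, Wdr19 at -1.07, Ift43 at -0.01, Ttc21b at -1.03 and Wdr35 at 0.35. The summed level of the 6 genes ran from 429 to 766 CPM in control and from 211 to 540 CPM in doxorubicin oocytes, 10 of which were below every control. Ift122 and Wdr19, already seen to be lower, are part of this sum, so it in part restates that choice. Complex B had a median log2 ratio of -0.07 over 13 measured genes, with Ift172 at -1.13.

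The remaining named lower genes had log2 ratios between -0.59 and -1.28. They were Arrdc2, of the alpha-arrestins, Fam160a1, Sephs2, which makes selenophosphate for selenoproteins, the nucleoporin Nup188, the mitochondrial hydrolase Hint2, the long noncoding RNA Gm43042 and the ubiquitin ligase Siah2. Siah2 was below every control in 11 doxorubicin oocytes, and for Hint2 this was 8, for Nup188 and Arrdc2 7, for Gm43042 6 and for Sephs2 5. All 15 lower genes had the same sign when any 1 oocyte was left out, and the 15 higher genes too.

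**Figure D3:**
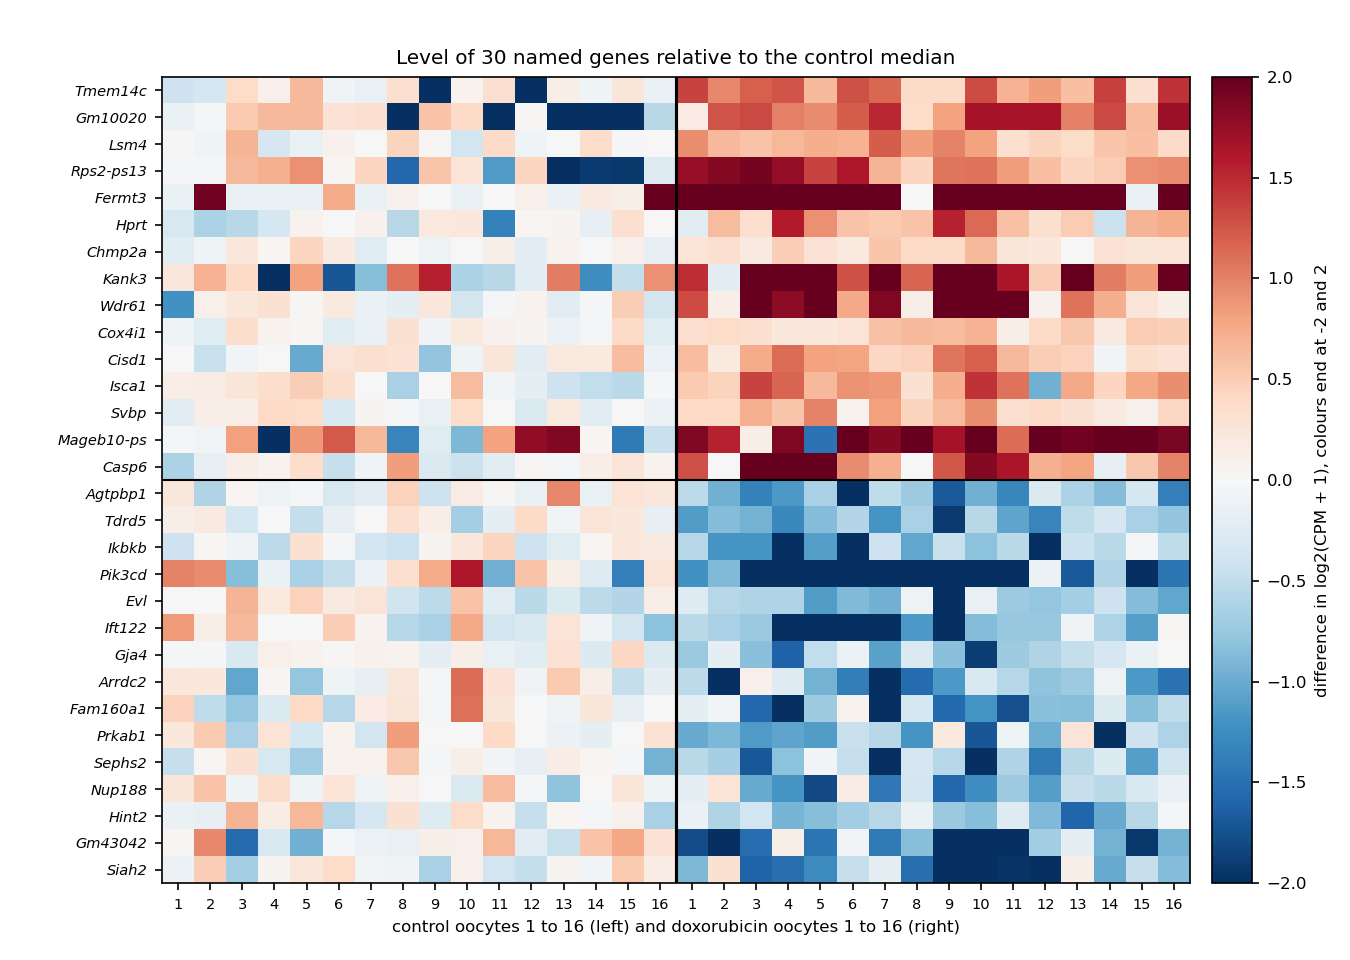
Rows are the 15 named higher and 15 named lower genes, columns the 16 control (left) and 16 doxorubicin (right) oocytes, and colour is the difference in log2(CPM + 1) from the control median, with colours ending at -2 and 2. Doxorubicin oocyte 10 is above every control in 15 of 15 higher genes, while oocytes 2, 8, 12, 14 and 15 are in 5.

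The doxorubicin oocytes differed among themselves. Each was above all controls in 5 to 15 of the 15 named higher genes (median 10) and below all controls in 6 to 12 of the 15 lower genes (median 8); these genes were chosen for their share of cell pairs, so the counts describe the choice. Among p53 targets, Mdm2, the ubiquitin ligase of p53, ran from 111 to 207 CPM (median 162) in control and from 75.2 to 1898 CPM (median 590) in doxorubicin oocytes; 9 were above every control, 1 was below, and its log2 ratio was 2.09. Cdkn1a, the cyclin-dependent kinase inhibitor p21, ran from 0.08 to 41.95 CPM (median 16.1) against 7.90 to 289 CPM (median 115), with 12 above every control and a log2 ratio of 3.06, which was 2.21 among low-somatic oocytes. Plk2, a polo-like kinase, ran from 0 to 10.4 CPM (median 0.22) against 0 to 367 CPM (median 8.37), with 7 above every control. Leaving out doxorubicin oocyte 11 took its log2 ratio from 4.01 to 3.40, and leaving out control oocyte 16 took it to 4.67; it was 5.25 among low-somatic oocytes.

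Across the 16 doxorubicin oocytes, the summed level of the p53-family list was set beside the other genes as a description; the points share their libraries and cells. Spearman's rho was 0.88 for Fermt3 and -0.80 for Gja4, the extremes among the named higher and lower genes on their own side. Mageb10-ps (-0.51) and Cox4i1 (-0.26) went the other way among the higher genes, and Arrdc2 (0.63) and Evl (0.10) among the lower. The medians were 0.42 over the 15 higher and -0.28 over the 15 lower genes. Spread was also wider after doxorubicin: the median Spearman similarity of 2 oocytes over all measured genes was 0.855 within control (from 0.738 to 0.919) and 0.802 within doxorubicin oocytes (from 0.668 to 0.867), with 0.815 between groups. The median interquartile range of a gene over cells was 0.81 log2 in control and 0.96 in doxorubicin oocytes.

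Detection was compared after thinning each cell to 5000000 counts, with 5 thinned reads taken as detected. A gene was counted as gained when at least 10 doxorubicin and at most 2 control oocytes had it, and as lost in the reverse case. By this rule 21 genes were gained (0.189 percent) and 1 was lost (0.00899 percent). With a difference of 8 cells as the rule, which was chosen after seeing the data, 41 genes (0.369 percent) were detected in more doxorubicin and 21 (0.189 percent) in more control oocytes, so the balance of gains to losses moved with the rule.

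The 8 gained genes with the largest ratios are given with their values, and 2 of the 21, D630023F18Rik and Eda2r, are in the p53-family list. Fermt1, which encodes kindlin-1, the epithelial relative of Fermt3, was detected in 0 control and 11 doxorubicin oocytes; controls ran from 0 to 0.58 CPM and doxorubicin oocytes from 0 to 290 CPM (median 24.7). Its log2 ratio was 10.20 [9.32, 11.26], resting on 10 control counts, and 11.85 without control oocyte 2. Slc6a8, the creatine transporter, on the X chromosome (chrX:73673150-73682502), was detected in 2 and 10 oocytes. It reached at most 4.52 CPM in control and ran from 0 to 980 CPM (median 39.8) in doxorubicin oocytes, of which oocytes 2, 8, 12, 14, 15 and 16 were below 1 CPM. Leaving out doxorubicin oocyte 3 took its log2 ratio from 8.40 to 7.80, and leaving out control oocyte 5 took it to 9.35.

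1700007K13Rik, whose promoter is shown above, was detected in 0 control and 14 doxorubicin oocytes, at 0.13 and 39.9 CPM, a log2 ratio of 8.29 (9.04 without control oocyte 6). Cfap126, a cilium and flagellum protein, was detected in 2 and 13 oocytes, at 0.12 and 14.3 CPM, with a log2 ratio of 6.93 (8.05 without control oocyte 4). Trim7, a ubiquitin ligase, was detected in 2 and 11, at 0.14 and 35.6 CPM (log2 ratio 7.96, and 9.10 without control oocyte 5). Inka1, an inhibitor of the kinase PAK4, was detected in 1 and 10, at 0.17 and 54.2 CPM (8.33, and 11.70 without control oocyte 12). D630023F18Rik was detected in 1 and 10, at 0.17 and 72.1 CPM (8.70, and 12.12 without control oocyte 9). In each of these a large part of the few control reads came from 1 cell, so the size of the ratio is uncertain.

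Gm10324, a zinc finger gene, was detected in 0 control and 13 doxorubicin oocytes; its 3 control counts are at the floor used here, and doxorubicin oocytes ran from 0 to 17.9 CPM. The other gained genes were Rapgef4, Ccdc17, Mapkapk3, Gm10545, Coro2a, Gm42047, Gm47939, Wnt7a, Zfp459, Fam83b, Egf and E2f7, the last 3 with log2 ratios of 3.61, 3.50 and 3.18. Egf, the epidermal growth factor, was detected in 2 and 11 oocytes. Zfp616, another zinc finger gene, was the lost gene: 11 control and 2 doxorubicin oocytes had it, at 7.08 and 0.35 CPM, a log2 ratio of -4.35 that became -5.67 without doxorubicin oocyte 4. Among low-somatic oocytes Zfp616 was under 5 CPM in both groups (3.51 and 0.53 CPM) and its ratio was -2.73. Examples from the wider set, chosen after their values were seen, are Kcnk18, a potassium channel found in 15 control and 4 doxorubicin oocytes (19.6 and 5.40 CPM), and Neu1, a lysosomal sialidase found in 15 and 6 (17.9 and 5.08 CPM). Zinc finger genes of these clusters have near-identical neighbours, so reads of Gm10324, Zfp459 and Zfp616 may be shared with copies. Several gained genes are also expressed in granulosa cells, Trim7 at 17.5 CPM and Inka1 at 14.4 CPM in control granulosa cells, whereas Fermt1 had 0.02 CPM there and Gm10324, Gm10545, Coro2a, Gm47939, Wnt7a and Fam83b were at 0. In doxorubicin granulosa cells Fermt1 had 5.45, Gm47939 2.65 and Gm10545 0.50 CPM. Coro2a had 0.014 and Fam83b 0.035 CPM there, and Gm10324 and Wnt7a were at 0. Those cells also held oocyte markers, at a median of 9320 CPM against 1753 CPM in control granulosa cells.

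**Figure D4:**
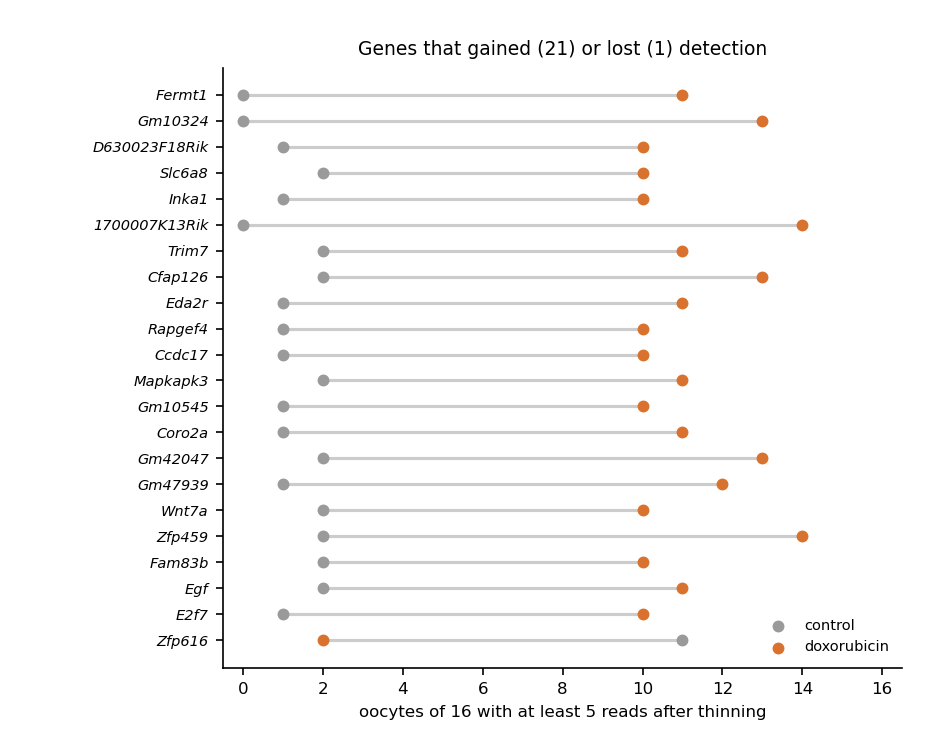
For the 21 gained and the 1 lost gene, the number of the 16 oocytes per group with at least 5 reads after thinning to 5000000 counts. The gained genes sit at 0 to 2 control and 10 to 14 doxorubicin oocytes, and Zfp616 at 11 and 2.

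Gene lists and name-defined families were described by the median log2 ratio of their measured members, and a list was counted as apart when this lay 0.2 or more from the median of all genes. Of 88 lists, 7 lay above (7.95 percent) and 6 below (6.82 percent). Cytosolic ribosomal proteins stood higher by a small amount: 44 of 49 measured large-subunit genes were higher, with a median of 0.23, and 28 of 32 small-subunit genes, with a median of 0.24. Rps23 had 285 and 400 CPM (log2 ratio 0.49), and Rpl9 132 and 179 CPM (0.43). The summed large-subunit level ran from 9658 to 18822 CPM (median 12489) in control and from 11236 to 23415 CPM (median 15070) in doxorubicin oocytes, which overlap widely. Without doxorubicin oocytes 9, 11 and 12 the medians were 0.16 and 0.15, below the distance used.

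Rpl26, a ribosomal protein known to bind p53 mRNA, went against its family. It ran from 7.72 to 256 CPM (median 161) in control and from 7.92 to 327 CPM (median 13.1) in doxorubicin oocytes, and its log2 ratio was -1.29. The ranges overlapped almost wholly, and copies of this gene may share its reads. Mitochondrial and proteasome families leaned upward without reaching the distance: 61 of 78 mitochondrial ribosomal proteins were higher (median 0.17), as were 40 of 47 complex I genes (0.14), 19 of 22 cytochrome c oxidase genes (0.08), 14 of 17 ATP synthase genes (0.13) and 36 of 43 proteasome genes (0.15). Translation initiation factors had a median of 0.09, yet their summed level, 12240 to 14846 CPM in control and 13651 to 17059 CPM in doxorubicin oocytes, was above every control in 11 of 16. Eif3b, a scaffold subunit of eIF3, was at 163 to 436 CPM (median 287) in control and 202 to 2602 CPM (median 451) in doxorubicin oocytes.

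The lists of maternal-effect genes stood below the others. Of 12 measured genes of the zona pellucida and the subcortical maternal complex, 2 were higher, and the median was -0.33. Without doxorubicin oocytes 9, 11 and 12 it was -0.21, just short of the distance used. Zp2, a zona pellucida glycoprotein, ran from 4234 to 12492 CPM (median 7889) in control and from 1457 to 9947 CPM (median 5320) in doxorubicin oocytes, with 6 below every control and a log2 ratio of -0.52. Khdc3 had a ratio of -0.63, Tle6 of -0.11 and Ooep of 0.16, so the list was not uniform. Of 10 measured Nlrp genes, which include Nlrp5 of the same complex, 2 were higher and the median was -0.37. Nlrp4b ran from 20.2 to 208 CPM (median 74.5) against 0 to 77.7 CPM (median 27.4), a log2 ratio of -1.33, and Nlrp4g was at -0.81, while Nlrp4c was at 0.23. The 2 measured oogenesins, Oog3 (63.7 and 14.9 CPM, log2 ratio -2.10) and Oog2 (-0.95), were both lower. These families have close copies, whose reads the counting may split.

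Oocyte transcription factors and secreted factors had a median near that of all genes (-0.04 over 15 measured), and its 2 lowest members were growth factors. Gdf9, which acts on granulosa cells, ran from 409 to 1470 CPM (median 922) in control and from 153 to 1172 CPM (median 500) in doxorubicin oocytes, a log2 ratio of -0.77. Bmp15, its partner on the X chromosome, ran from 0.25 to 75.8 CPM (median 33.6) against 0 to 42.5 CPM (median 13.3), a log2 ratio of -1.41. Its 2 highest members were the growth factor gene Bmp6 (15.9 and 27.0 CPM, log2 ratio 0.76) and Figla, a transcription factor of oocyte genes (0.09). Genes of the meiotic axis leaned the other way, with 19 of 31 higher and a median of 0.16 that was within the distance used and stood at 0.02 without doxorubicin oocytes 9, 11 and 12; Sycp3, of the synaptonemal complex, ran from 418 to 1121 CPM (median 807) against 565 to 1948 CPM (median 1155), 9 of them above every control.

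The remaining lists at a distance rested on few or low genes. The NF-kB list had 17 of 26 higher and a median of 0.22. Its median was 0.04 over genes at 20 CPM or more, 0.12 without doxorubicin oocytes 9, 11 and 12, and 0.05 by cells' medians. All 3 were short of the distance used. Traf3, an adaptor of this pathway, ran from 0 to 59.1 CPM (median 7.86) against 1.47 to 166 CPM (median 57.8), a log2 ratio of 2.24. By contrast, Ikbkb and Birc3 (-0.90) were lower. Of 4 measured Ifitm genes 3 were higher (median 1.39): Ifitm10 ran from 0 to 18.3 CPM (median 5.06) in control and from 0.09 to 861 CPM (median 172) in doxorubicin oocytes, 10 of them above every control. Of the S100 genes 3 of 3 were higher (median 1.36), led by S100a16 (3.43 and 62.2 CPM, log2 ratio 4.18). By cells' medians the S100 median was 0.15, short of the distance used. Collagens (14 of 20 higher, median 0.41) and keratins (7 of 9, median 0.70) were at -0.18 and 0.01 among low-somatic oocytes. The somatic markers include members of both families, such as Col1a1, Col3a1, Krt8 and Krt19. Low levels of these were thus a condition of that choice of cells, and the 2 values cannot show where the difference came from. Without doxorubicin oocytes 9, 11 and 12 the medians were 0.08 and 0.77. DEAH box helicases, karyopherins, and aldehyde and alcohol dehydrogenases were lower by medians of -0.23, -0.22 and -0.23, with 5 of 15, 6 of 19 and 4 of 15 members higher. Of these, the helicases were at -0.16 among low-somatic oocytes, -0.19 without doxorubicin oocytes 9, 11 and 12 and -0.11 by cells' medians, the karyopherins at -0.07 among low-somatic oocytes, and at -0.18 by the mean of cells, and the dehydrogenases at -0.10 by the mean of cells and -0.18 by cells' medians, all short of the distance used.

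**Figure D5:**
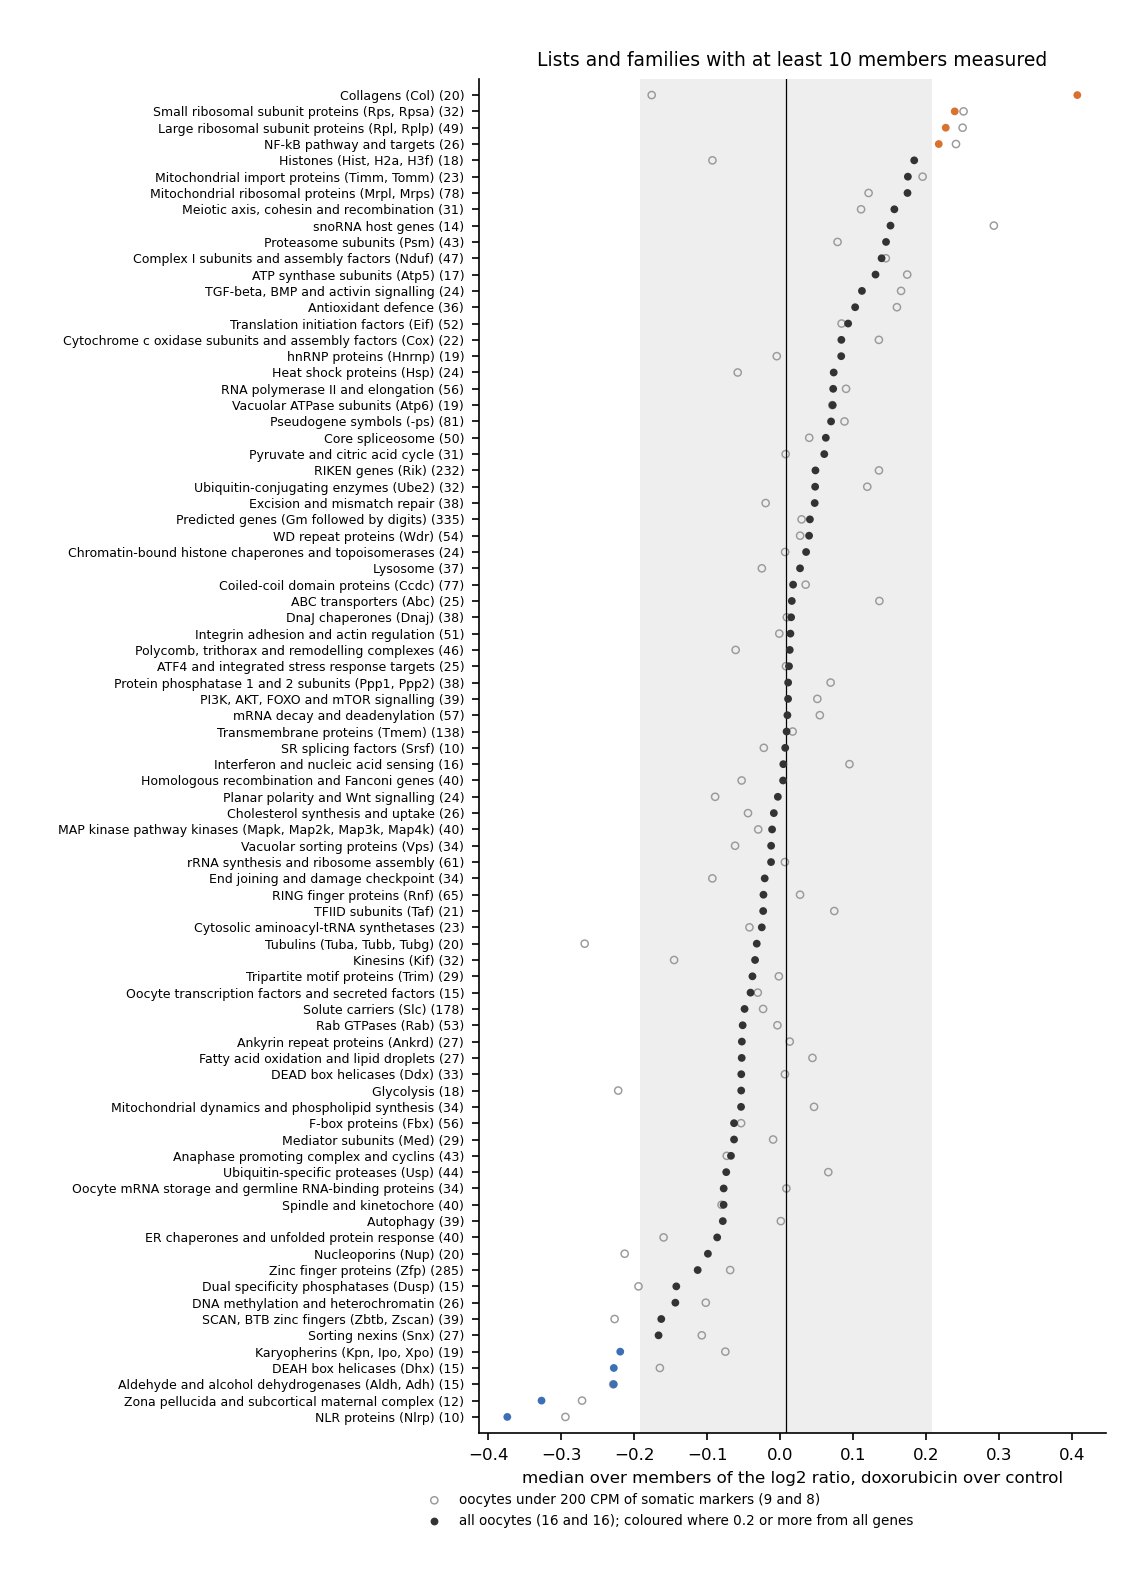
For each list or family with at least 10 measured members, the filled circle is the median log2 ratio, doxorubicin over control (orange or blue where it lies above or below the band), and the open circle the same among low-somatic oocytes; the grey band spans 0.2 on either side of the median of all genes. Ribosomal proteins lie just above the band, at 0.23 and 0.24, and Nlrp genes and the zona pellucida list below it, at -0.37 and -0.33, while the collagens' open circle is at -0.18.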

How the data were processed

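Single oocytes were profiled by SMART-seq (SMART-seq v4 and Nextera XT, per the labels' protocols). The authors deposited a table of estimated counts per gene for 61 cells; 34.05% of its nonzero values are not whole, and they were rounded here. The submitters' processing notes name Partek, Bowtie2, HISAT2, DESeq2 and the build mm10, with no roles or versions; strand use in counting is not given in the sources used here. Per the series' text, raw reads no longer exist for doxorubicin oocyte 4; its column was used. The table's 22 rows with a date in place of a symbol (0.144% of counts) stayed in the totals and counts of genes but are not named, and mitochondrially encoded genes are not in it. CPM were computed from all rows and pooled per group; they are not corrected for gene length, so levels are not compared between genes. Ratios are of pooled CPM, with groups under 3 counts set to 3, and an exact binomial 95% interval that covers counting error only, since PCR reads without molecular identifiers are not independent molecules.

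Members, gene lists and families were chosen with earlier results of these data known. Named genes were those outside the p53, JNK and AP-1 lists with 50 CPM or more in at least one group and one sign by pooled CPM, cell mean, cell median and low-somatic oocytes, ranked by the share of cell pairs, the first 15 each way; of a list, the 2 highest and 2 lowest members at 20 CPM or more; of detection changes, the first 8 by ratio; and Cdkn1a, Mdm2, Fermt3 and Plk2. Other genes, among them Nlrp5, Rps2, Sycp3 and the intraflagellar transport genes, were chosen after their values were seen. Alternatives were the scaling (edgeR 4.0.16 TMM and DESeq2 1.42.0 size factors), the minimum level, the summary over cells, the thresholds, the cells used and leaving out each cell. Positions are from GENCODE M21 (GRCm38), promoters from RefSeq. The steps were tested on simulated data. Python 3.11.15, pandas 2.3.3, numpy 2.4.6, scipy 1.17.1, matplotlib 3.10.9 and R 4.3.3 were used.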

Additional observations from a re-analysis of the deposited data

How the results depend on the processing

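No paired analysis was possible because the replicate numbers only name cells and no test across replicates could be made. The scaling mattered little: 2-fold higher and lower genes numbered 712 and 262 with TMM factors and 709 and 259 with DESeq2 size factors. Thresholds moved the counts more. At 1 CPM 1666 of 14517 measured genes were higher and 835 lower, and at 20 CPM 245 and 69 of 7787. At 4-fold there were 264 and 40 of 11119. By cells' medians 555 of 11119 were lower, and among low-somatic oocytes 436 of 10849. Leaving out 1 oocyte gave 641 to 766 higher and 245 to 307 lower. Low-somatic oocytes gave 71 of 10849 measured genes in 90% of pairs upward and 56 downward, with 3 fully separated each way. These are fewer cells, and the part of cell number in this was not tested. Among all oocytes, 2 genes of 11119 passed 95% of pairs each way. Leaving out 1 oocyte gave 21 to 31 upward and 4 to 13 downward, the last without doxorubicin oocyte 2 and above 7 also without control oocytes 3, 9, 12 and 16 and doxorubicin oocytes 6, 8, 13 and 14. Gained genes numbered 7 at 20 CPM, 32 among low-somatic oocytes, 13 when 1 read sufficed, 41 at a difference of 8 cells (chosen after seeing the data), and 21 to 31 with 1 oocyte left out. Lost genes numbered 5 at 1 CPM, 0 at 20 CPM, 10 among low-somatic oocytes, 3 when 1 read sufficed, 5 without doxorubicin oocytes 9, 11 and 12 (chosen after seeing the data), 21 at a difference of 8 cells, and 1 to 4 with 1 oocyte left out, the last without doxorubicin oocyte 3 or 6. List medians changed sign for collagens (-0.18, low-somatic oocytes) and keratins (-0.45, at 20 CPM). Of the named genes none changed sign. The 15 higher and 15 lower genes had been chosen for the same sign by pooled CPM, cell mean, cell median and low-somatic oocytes. For them the outcome under those settings was fixed by the choice. The causes of these changes were not tested. With 1 sample a group, differences between animals cannot be told from treatment.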

Other observations

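Genes of the X chromosome were looked at after their values were seen. Of 381 measured X-linked genes 63.0% were higher in doxorubicin oocytes, with a median log2 ratio of 0.10, and 40 were at least 2-fold higher. Of 10595 autosomal genes 50.5% were higher, with a median of 0.0045, and 6.09% were at least 2-fold higher and 2.45% lower. In single oocytes, the X median minus the autosomal median, relative to controls, ran from -0.12 to 0.10 (median 0.0048) in control and from -0.093 to 0.31 (median 0.12) in doxorubicin oocytes, 10 of which were above every control. X-linked genes took 2.92 to 3.50 percent of counts (median 3.20) in control and 3.05 to 3.58 percent (median 3.46) in doxorubicin oocytes. The X median was 0.11 among low-somatic oocytes and 0.04 without doxorubicin oocytes 9, 11 and 12, where the autosomal medians were 0.01 and -0.02. The cause of the X difference was not tested.

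Gene structure went with the ratio by small amounts. Genes were divided into 5 equal bins by their longest annotated transcript (chosen after seeing the data). The shortest bin had a median log2 ratio of 0.10 with 64.1% of genes higher, and the longest -0.03 with 47.1%. Without ribosomal, respiratory and proteasome families the shortest bin was at 0.09. Genes whose longest transcript has 1 to 3 exons had a median of 0.07, and those with 17 exons or more -0.08. In single oocytes, the median of the shortest bin minus that of the longest ran from -0.43 to 0.36 in control and from -0.34 to 0.87 in doxorubicin oocytes, with 2 above every control, so most cells overlapped. Genes are not independent replicates, and the cause was not tested.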
